A study of Homo sapiens with 12 samples.

Results

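Transcripts of 5 pro-survival genes of the BCL2 family, MCL1, BCL2, BCL2L1, BCL2L2 and BCL2A1, were followed in MOLT4, a line established from a human T-cell acute lymphoblastic leukemia. The genes were taken by name from the 23617 genes of the expression table, and all 5 were present. Cells were exposed for 6 h to 250 nM SNS-032, an inhibitor of several cyclin-dependent kinases (CDKs), to 250 nM THAL-SNS-032, the same compound joined to a thalidomide-type ligand of the ubiquitin ligase receptor cereblon, to 250 nM NVP-2, an inhibitor of CDK9, or to 0.1% DMSO as vehicle. Each group had 3 libraries of poly(A) RNA, 12 in all, from this single cell line grown in RPMI with serum. The labels do not say whether the 3 came from separate cultures, so p-values measure the spread between these libraries, which may be technical.

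Proteins of the BCL2 family decide whether the outer mitochondrial membrane stays sealed. The pro-survival members bind BAX and BAK, which would otherwise form pores and release cytochrome c, and they are themselves occupied by BH3-only proteins such as BIM and NOXA. MCL1 is known for a short-lived protein and a short-lived transcript, so that its supply depends on continued transcription. CDK9, as part of P-TEFb, releases paused RNA polymerase II into elongation. BCL2L1 encodes BCL-XL, BCL2L2 encodes BCL-w and BCL2A1 encodes BFL-1. MCL1 and BCL2L1 are each spliced into a long pro-survival and a short death-promoting form, and the table, which has 1 value per gene, does not separate them.

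Levels are in FPKM as deposited, fragments per length of transcript, with a scaling between libraries that is not given in the sources used here. Spike-in RNAs added at cell lysis were level across libraries, with library medians between -0.032 and 0.043 (log2) of their mean over libraries. Relative to the DMSO mean, the library medians of the tested genes were at -2.61 to -1.87 (log2) in SNS-032 libraries, -2.32 to -2.14 in THAL-SNS-032 libraries and -3.05 to -2.87 in NVP-2 libraries, and between -0.076 and 0.10 in DMSO libraries. SNS-032 replicate 1 was the low one in its group, with a median at -2.61 where replicates 2 and 3 had -1.87 and -2.03. Less RNA per cell and fewer cells per lysate cannot be told apart in bulk RNA. All 9 T-lineage markers averaged 1 FPKM or more in every group, and their sum was 694 to 1160 FPKM after SNS-032, 1240 to 1380 after THAL-SNS-032, 615 to 753 after NVP-2 and 3510 to 4450 in DMSO. The 4 myeloid markers summed to 1.87 to 3.60 FPKM after SNS-032, 4.17 to 5.34 after THAL-SNS-032, 0.514 to 0.626 after NVP-2 and 0.823 to 0.976 in DMSO, and the 4 B-lineage markers to 2.50 to 5.36 after SNS-032, 5.55 to 6.70 after THAL-SNS-032, 3.0 to 3.48 after NVP-2 and 11.6 to 12.7 in DMSO. The 4 erythroid markers, each averaging under 1 FPKM in every group, summed to 0.400 to 1.60 FPKM after SNS-032, 0.642 to 1.23 after THAL-SNS-032, 0.529 to 0.908 after NVP-2 and 0.539 to 2.52 in DMSO. No single marker was listed at 0, and their part in the results was not tested.

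MCL1, on chromosome 1, fell with all 3 compounds on the deposited scale, least with SNS-032 and most with NVP-2, although centring each library on its own median turned its change positive with SNS-032 and to near 0 with THAL-SNS-032. The median centred change of all tested genes was 0.25 with SNS-032 and 0.36 with THAL-SNS-032. The level of MCL1 was 31.9, 60.6 and 53.2 FPKM after SNS-032, 18.0, 20.5 and 19.3 after THAL-SNS-032, 6.02, 7.24 and 6.43 after NVP-2, and 85.7, 93.9 and 98.9 in DMSO. The 4 groups did not overlap, and they ran in the order NVP-2, THAL-SNS-032, SNS-032, DMSO from low to high. It averaged 48.6 ± 14.9 FPKM after SNS-032, 19.3 ± 1.26 after THAL-SNS-032, 6.56 ± 0.620 after NVP-2 and 92.9 ± 6.63 in DMSO (SD, n = 3 each). Of the DMSO mean, 52.3% was left after SNS-032, 20.8% after THAL-SNS-032 and 7.07% after NVP-2.

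BCL2L1, on chromosome 20, had a level close to that of MCL1 in DMSO and fell with each compound on the deposited scale. After centring its change was below 0 for NVP-2 alone, at 0.16 after SNS-032, 0.11 after THAL-SNS-032 and -0.099 after NVP-2. Each was below the median centred change of all tested genes, which was 0.25, 0.36 and 0.42 in that order. BCL2L1 had 16.4, 29.7 and 26.6 FPKM after SNS-032, 20.1, 23.2 and 20.8 after THAL-SNS-032, 10.6, 11.4 and 10.6 after NVP-2, and 90.9, 99.3 and 104 in DMSO. The SNS-032 and THAL-SNS-032 libraries overlapped, NVP-2 lay below both, and DMSO lay above all 9 treated libraries. SNS-032 left 24.7% of the DMSO mean, THAL-SNS-032 left 21.8% and NVP-2 left 11.1%.

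Sequence upstream of a start site could be matched in the RefSeq promoter table (GRCh38.p14) for 3 of the 5 members, BCL2, BCL2L1 and BCL2A1. BCL2L1 has 2 entries there, and only the window of the outermost start was used. The other start was not examined. For BCL2L1, which was lower with all 3 compounds and serves further on as the measure for MCL1, the 224 bases of that window upstream of all annotated exons of the gene (GENCODE 29) lie at chr20:31723990-31724213, minus strand, and are shown 5′ to 3′ with matches to TATAAA in capitals.

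BCL2L1 upstream: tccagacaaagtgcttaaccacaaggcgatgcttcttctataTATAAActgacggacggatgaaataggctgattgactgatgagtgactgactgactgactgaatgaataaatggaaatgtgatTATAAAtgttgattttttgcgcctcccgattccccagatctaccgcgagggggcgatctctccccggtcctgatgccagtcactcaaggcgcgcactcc

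The stretch holds TATAAA 2 times, starting 208 and 125 bases upstream of this outermost RefSeq start, and 47.8% of its bases are G or C. Searched on both strands, TATAAA was present in 8.48% of all 35116 promoter windows of that length, GGGCGG in 39.4%, CCAAT in 30.2% and TTCNNNGAA in 6.08%. The last 3 are not in the BCL2L1 stretch.

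BCL2, the founding member of the family, on chromosome 18, was less abundant per length. It had 1.21, 2.46 and 2.05 FPKM after SNS-032, 2.38, 2.49 and 2.33 after THAL-SNS-032, 0.810, 0.942 and 0.934 after NVP-2, and 6.43, 6.68 and 7.65 in DMSO. Again SNS-032 and THAL-SNS-032 overlapped, NVP-2 lay below both and DMSO above all. SNS-032 left 27.5% of the DMSO mean, THAL-SNS-032 left 34.6% and NVP-2 left 12.9%.

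BCL2L2 and BCL2A1 were low. For scale, 4214 names carry an identical value within a library, 0.0910 to 0.104 FPKM depending on the library, and others lie below it. BCL2L2, on chromosome 14, had 0.325, 0.448 and 0.435 FPKM after SNS-032, 0.424, 0.574 and 0.420 after THAL-SNS-032, 0.294, 0.421 and 0.522 after NVP-2, and 1.33, 0.952 and 1.37 in DMSO. All 9 treated libraries lay below all DMSO libraries, while the 3 compounds overlapped. This level is uncertain, since exons of BCL2L2 are shared with the read-through gene BCL2L2-PABPN1, listed at 52.1 ± 13.3 FPKM after SNS-032, 59.7 ± 4.14 after THAL-SNS-032, 31.9 ± 2.82 after NVP-2 and 206 ± 12.2 in DMSO (SD, n = 3 each). How the reads were divided between the 2 genes is not known. BCL2A1, on chromosome 15, had 0.0502, 0.299 and 0.0697 FPKM after SNS-032, 0.222, 0.275 and 0.0639 after THAL-SNS-032, 0.0481, 0.111 and 0.0488 after NVP-2, and 2.06, 1.51 and 1.51 in DMSO. In 5 of the 9 treated libraries BCL2A1 was below the lowest of those shared values, so no ratio of its FPKM values is given. BCL2L10, a further pro-survival relative, was under 1 FPKM in every library, at 0.246 to 0.650 with the compounds and, below all of these, at 0.164 to 0.170 in DMSO.

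**Figure D1:**
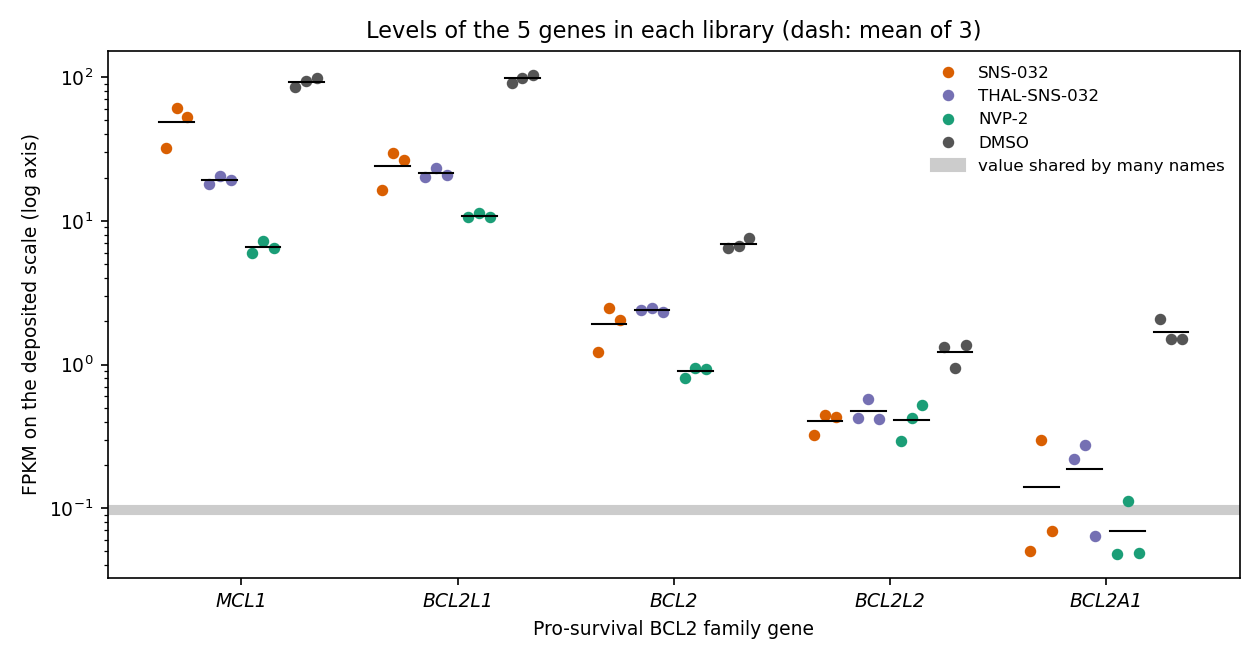
FPKM on a log axis for the 5 genes in each library, by group, with a dash at the mean of 3 and a grey band at the value shared by many names. The 4 groups are separate for MCL1, while SNS-032 and THAL-SNS-032 overlap for BCL2L1 and BCL2, and several treated values of BCL2A1 lie in or under the band.

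The order of the members by level per length changed with treatment. With SNS-032 it was MCL1, BCL2L1, BCL2, BCL2L2 and BCL2A1 from high to low, with no overlap between neighbours. With THAL-SNS-032 BCL2L1 (21.4 FPKM) and MCL1 (19.3 FPKM) overlapped at the top. With NVP-2 BCL2L1 (10.9 FPKM) lay above MCL1 (6.56 FPKM) without overlap. In DMSO BCL2L1 (98.1 FPKM) and MCL1 (92.9 FPKM) overlapped, followed by BCL2, BCL2A1 and BCL2L2, each apart from the next. The 5 genes together summed to 49.9, 93.5 and 82.4 FPKM after SNS-032, 41.1, 47.1 and 43.0 after THAL-SNS-032, 17.8, 20.1 and 18.5 after NVP-2, and 186, 202 and 213 in DMSO. MCL1 made up 64.4% ± 0.454 of that sum after SNS-032, 44.1% ± 0.750 after THAL-SNS-032, 34.8% ± 1.16 after NVP-2 and 46.2% ± 0.231 in DMSO (SD, n = 3 each).

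A ratio of 2 genes within a library does not depend on a scaling that multiplies the whole library by 1 factor. Whether the scaling of the deposited values was of that kind is not known. The log2 ratio of MCL1 to BCL2L1 was 0.96, 1.03 and 1.00 after SNS-032, -0.16, -0.18 and -0.11 after THAL-SNS-032, -0.82, -0.65 and -0.72 after NVP-2, and -0.084, -0.080 and -0.073 in DMSO. SNS-032 replicate 1, low across genes, had a ratio of 0.96, close to the others of its group. Relative to BCL2L1, MCL1 was thus 2.11-fold higher with SNS-032 than in DMSO and 1.57-fold lower with NVP-2 than in DMSO. The shift with THAL-SNS-032 was small, -0.068 on the log2 scale. The log2 ratio of MCL1 to BCL2 averaged 4.68 ± 0.049 after SNS-032, 3.01 ± 0.076 after THAL-SNS-032, 2.87 ± 0.081 after NVP-2 and 3.75 ± 0.061 in DMSO (SD, n = 3 each). This ratio was 1.67-fold lower after THAL-SNS-032, and 1.83-fold lower after NVP-2, than in DMSO. Against BCL2L2 the log2 ratio was 6.88 ± 0.24 after SNS-032, 5.37 ± 0.19 after THAL-SNS-032, 4.03 ± 0.37 after NVP-2 and 6.27 ± 0.32 in DMSO (SD, n = 3 each), with the uncertainty of BCL2L2 named above. In 16 of the 18 tests of a ratio between 2 groups, the groups did not overlap, and each of these had an exact two-sided permutation p = 0.1, the smallest that 3 against 3 allows (0.112 after Benjamini-Hochberg adjustment over the 18). The other 2 were MCL1 to BCL2 for THAL-SNS-032 against NVP-2 and MCL1 to BCL2L2 for SNS-032 against DMSO, with exact p = 0.2 each. How often ratios of other pairs of genes separate the groups was not tested, so the count cannot be called a trait particular to MCL1.

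**Figure D2:**
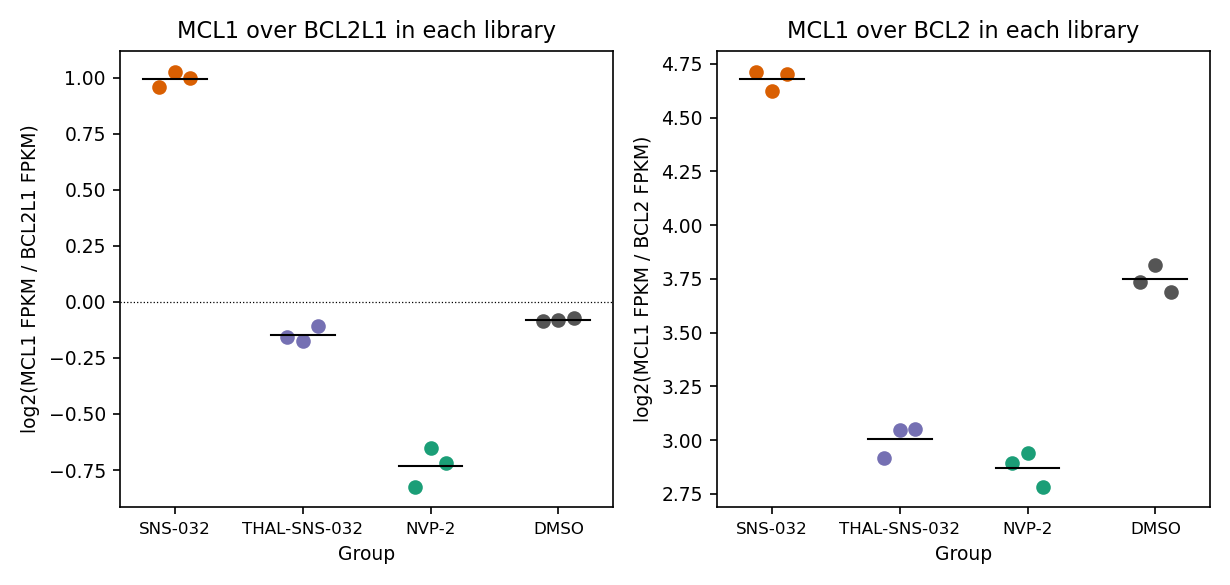
Log2 ratio of MCL1 FPKM to BCL2L1 FPKM (left) and to BCL2 FPKM (right) in each library, with a dash at the mean of 3. SNS-032 libraries lie highest in both panels, at 0.96 to 1.03 over BCL2L1, and NVP-2 libraries are lowest over BCL2L1, at -0.82 to -0.65.

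The comparisons with DMSO asked what each compound did to these transcripts. Changes are differences in mean log2(FPKM + 1), tested with limma and Benjamini-Hochberg adjustment over the 11379 genes whose mean over all libraries reached 1 FPKM. For a gene well above 1 FPKM, a change of -1 is about 2-fold less. BCL2 averaged 1.91 FPKM after SNS-032, 2.40 after THAL-SNS-032 and 0.895 after NVP-2. Adding 1 thus makes its changes against DMSO less negative and affects its place among the genes. Centred values start from the same log2(FPKM + 1) values. Of the 5 members, MCL1, BCL2 and BCL2L1 reached that mean and were tested, and BCL2L2 (mean 0.627 FPKM over the 12 libraries) and BCL2A1 (0.522) did not. With SNS-032, MCL1 changed by -0.97 (SE 0.20, adjusted p = 3.21e-04), BCL2 by -1.47 (SE 0.15, adjusted p = 1.90e-07) and BCL2L1 by -2.01 (SE 0.19, adjusted p = 7.95e-08). All 3 were called lower, where 94.6% of the genes tested were called lower and 1.54% higher. A call in this direction is thus shared with nearly the whole table, and the place of a gene among the others says more. Of all tested genes, 88.1% had a lower change than MCL1, 71.3% a lower change than BCL2 and 45.9% a lower change than BCL2L1. The median change of all tested genes was -1.92. When each library was centred on its own median, MCL1, BCL2 and BCL2L1 turned to 1.20, 0.70 and 0.16. The median change became 0.25, with 3538 genes called lower and 5987 higher.

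With THAL-SNS-032, MCL1 changed by -2.21 (SE 0.20, adjusted p = 5.46e-08), BCL2L1 by -2.15 (SE 0.19, adjusted p = 3.90e-08) and BCL2 by -1.22 (SE 0.15, adjusted p = 1.59e-06). All 3 were again called lower, beside 94.8% of the genes tested called lower and 1.37% higher, with a median of -1.90. MCL1 now lay below the median gene, with 36.8% of tested genes lower than it. For BCL2L1 this share was 39.3% and for BCL2 78.2%. After centring, MCL1 was at 0.048 (adjusted p = 0.363, limma), BCL2L1 at 0.11 and BCL2 at 1.04, beside a median of 0.36 with 3319 genes called lower and 6513 higher.

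With NVP-2, MCL1 changed by -3.63 (SE 0.20, adjusted p = 1.24e-10), BCL2L1 by -3.06 (SE 0.19, adjusted p = 4.16e-10) and BCL2 by -2.06 (SE 0.15, adjusted p = 2.45e-09). All 3 were called lower, as were 97.1% of the genes tested, with 0.448% higher and a median of -2.54. Only 15.2% of tested genes had a lower change than MCL1, against 30.2% for BCL2L1 and 69.6% for BCL2. In FPKM the share of the DMSO mean left was 12.9% for BCL2, 11.1% for BCL2L1 and 7.07% for MCL1. BCL2 thus fell less in proportion than MCL1 and slightly less than BCL2L1. Its higher place also carries the effect of adding 1 to low values. After centring MCL1 (-0.67) and BCL2L1 (-0.099) stayed below 0, and BCL2 turned to 0.90, beside a median of 0.42 with 3198 genes called lower and 6788 higher. The 3 comparisons share the DMSO libraries. Without the filter, BCL2L2 was at -0.66 after SNS-032, -0.59 after THAL-SNS-032 and -0.65 after NVP-2, and BCL2A1 was at -1.24 after SNS-032, -1.18 after THAL-SNS-032, and -1.33 after NVP-2. At such levels these differences understate the change and are not to be read as folds or as tests. Among all genes of that fit, 48.5% were lower than BCL2L2 after SNS-032, 49.05% after THAL-SNS-032 and 51.2% after NVP-2. For BCL2A1 the share was 39.5% after SNS-032, 39.4% after THAL-SNS-032 and 44.8% after NVP-2.

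**Figure D3:**
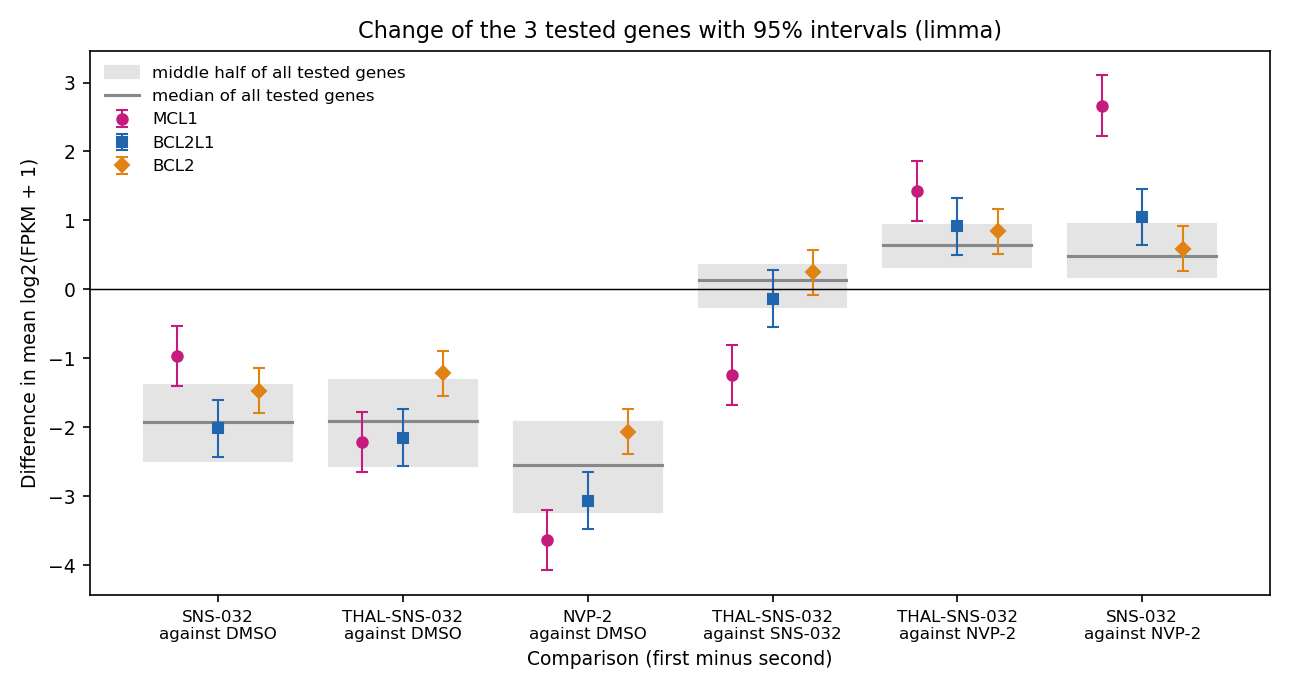
Difference in mean log2(FPKM + 1) of MCL1, BCL2L1 and BCL2 with 95% intervals in the 6 comparisons, over the median (line) and interquartile range (box) of all tested genes. MCL1 is above the box with SNS-032 (-0.97), inside it with THAL-SNS-032 (-2.21) and below it with NVP-2 (-3.63), all against DMSO.

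The compounds were compared at the same dose and time. A linker and cereblon ligand set THAL-SNS-032 apart from SNS-032. Of the 3 tested members, MCL1 was called lower with THAL-SNS-032 than it was with SNS-032 (-1.24, SE 0.20, 95% interval -1.68 to -0.80, adjusted p = 3.78e-04). All 3 THAL-SNS-032 libraries lay below all 3 SNS-032 libraries, and after centring the difference was -1.16, where 2627 genes were called lower and 5820 higher. Of the genes tested 16.7% were called lower and 13.4% higher, with a median of 0.14, and 6.04% had a lower difference than MCL1. BCL2 did not pass (0.25, 95% interval -0.074 to 0.57, adjusted p = 0.219) and neither did BCL2L1 (-0.14, 95% interval -0.55 to 0.28, adjusted p = 0.599). Both intervals lie within 2-fold. SNS-032 replicates 1 and 2 each bear on these 2 genes. Without replicate 1, BCL2L1 was called lower (-0.38, adjusted p = 0.00541) and BCL2 was at 0.067. Without replicate 2, BCL2L1 was at 0.027 and BCL2 was called higher (0.39, adjusted p = 0.0459). After centring, BCL2 was called higher (0.34, adjusted p = 2.46e-04, limma).

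With THAL-SNS-032 all 3 tested members were higher than with NVP-2, MCL1 by 1.43 (SE 0.20, adjusted p = 7.64e-05), BCL2L1 by 0.91 (SE 0.19, adjusted p = 0.00102) and BCL2 by 0.84 (SE 0.15, adjusted p = 3.61e-04). Here 70.0% of the genes tested were called higher and 0.993% lower, with a median of 0.64. The difference of MCL1 exceeded that of 94.2% of tested genes. In FPKM the THAL-SNS-032 mean was 2.94-fold the NVP-2 mean for MCL1, 1.97-fold for BCL2L1 and 2.68-fold for BCL2. After centring, MCL1 was at 0.72, BCL2L1 at 0.21 and BCL2 at 0.14, the last no longer called (adjusted p = 0.0503, limma), with 4329 genes called lower and 3339 higher.

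With SNS-032 MCL1 was higher than with NVP-2 by 2.67 (SE 0.20, adjusted p = 8.37e-08), BCL2L1 by 1.05 (SE 0.19, adjusted p = 3.46e-04) and BCL2 by 0.59 (SE 0.15, adjusted p = 0.00436). In FPKM the SNS-032 mean was 7.40-fold the NVP-2 mean for MCL1, 2.23-fold for BCL2L1 and 2.13-fold for BCL2. Of the genes tested 52.6% were called higher and 0.782% lower, the median was 0.48, and MCL1 exceeded 97.3% of them. After centring MCL1 was at 1.88 and BCL2L1 at 0.26, while BCL2 turned to -0.20, called lower, beside a median of -0.31 with 6711 genes called lower and 2816 higher.

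**Figure D4:**
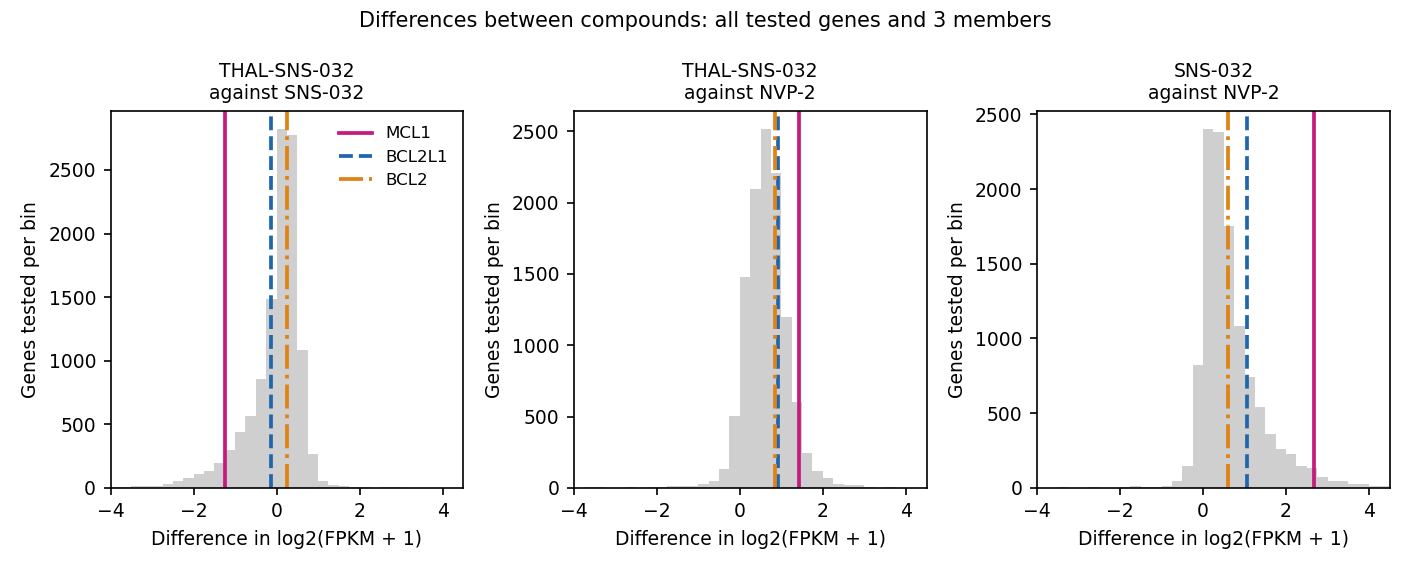
Number of tested genes per 0.25-wide bin of the difference in mean log2(FPKM + 1) between compounds, with lines at MCL1, BCL2L1 and BCL2. MCL1 lies in the lower tail for THAL-SNS-032 against SNS-032 (-1.24) and in the upper tail for SNS-032 against NVP-2 (2.67), while BCL2L1 and BCL2 lie nearer the centre.

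The genes whose changes were most like those of a member were found by the root mean square difference over the 9 treated libraries of log2(FPKM + 1) minus the DMSO mean, among 10363 genes. For MCL1 they were CHERP (0.053), RNF126 (0.11), which encodes a ubiquitin ligase, and DR1 (0.11), which encodes a repressor of transcription. CHERP changed by -1.01 after SNS-032, -2.14 after THAL-SNS-032 and -3.61 after NVP-2. For BCL2 they were HTT (0.044), the huntingtin gene, ZZEF1 (0.069) and ZBTB4 (0.072). For BCL2L1 they were XPC (0.054), a DNA repair gene, KDM5A (0.060), a histone demethylase gene, and MAPKAPK2 (0.071), a kinase gene of the p38 pathway. Genes near 1 FPKM can look alike on this measure with unlike shares left. After NVP-2, KDM5A averaged 0.877 FPKM against 15.35 in DMSO and XPC 1.57 against 20.4, where BCL2L1 had 10.9 against 98.1. Between the members themselves the same measure was 0.69 for MCL1 and BCL2L1, 0.85 for BCL2 and BCL2L1 and 1.11 for MCL1 and BCL2. The values with BCL2, itself low, carry the same limit.

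The partners of the family in mitochondrial apoptosis were taken from lists of known genes. Of the effectors that form the membrane pore, BAX and BAK1 were tested and BOK was not, at 0.0800 to 0.219 FPKM over the 12 libraries. Both fell with each compound on the deposited scale, but by unequal amounts. BAK1, which MCL1 and BCL-XL hold in check, had 6.96, 13.3 and 11.1 FPKM after SNS-032, 3.66, 4.29 and 3.86 after THAL-SNS-032, 1.998, 2.26 and 2.03 after NVP-2, and 55.1, 60.1 and 66.8 in DMSO. It changed by -2.47 after SNS-032 (-0.30 centred), -3.64 after THAL-SNS-032 (-1.38 centred) and -4.31 after NVP-2 (-1.35 centred). BAX changed by -1.67 after SNS-032 (0.51 centred), -1.48 after THAL-SNS-032 (0.78 centred) and -2.19 after NVP-2 (0.77 centred). BAK1 was also lower with THAL-SNS-032 than it was with SNS-032 (-1.17, SE 0.19, adjusted p = 3.03e-04, limma), while BAX did not pass (0.18, 95% interval -0.26 to 0.62).

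Of 8 BH3-only genes, which encode proteins that occupy the pro-survival members, 6 were tested, and BMF and HRK were not. BBC3 reached the filter only through SNS-032, with a mean of 0.599 FPKM over the other 9 libraries, and BIK only through DMSO, with a mean of 0.834 FPKM over the other 9. They are given as values with no test and are left out of the counts. The other 4 genes were called lower with each compound, near the background of 94.6% for SNS-032, 94.8% for THAL-SNS-032 and 97.1% for NVP-2, with a median of -2.05 after SNS-032 (-1.92 over all tested genes), -2.17 after THAL-SNS-032 (-1.90 over all) and -2.60 after NVP-2 (-2.54 over all). After centring, 0 were called lower and 2 higher with SNS-032, 2 lower and 2 higher with THAL-SNS-032, and 1 lower and 3 higher under NVP-2. Over all tested genes the centred shares were 31.1% lower and 52.6% higher with SNS-032. They were 29.2% and 57.2% with THAL-SNS-032, and 28.1% and 59.7% under NVP-2. PMAIP1, which encodes NOXA, a partner of MCL1, had 9.64, 18.4 and 15.7 FPKM after SNS-032, 6.995, 9.51 and 8.86 after THAL-SNS-032, 1.77, 2.62 and 2.55 after NVP-2, and 52.2, 55.3 and 58.4 in DMSO. Like MCL1 it was lowest under NVP-2, and its groups did not overlap. PMAIP1 changed by -1.90 after SNS-032 (0.28 centred), -2.58 after THAL-SNS-032 (-0.32 centred) and -4.10 after NVP-2 (-1.13 centred). It was lower with THAL-SNS-032 than it was with SNS-032 (-0.69, SE 0.21, adjusted p = 0.0225, limma). BCL2L11, which encodes BIM, changed by -2.21 after SNS-032 (-0.040 centred), -3.07 after THAL-SNS-032 (-0.81 centred) and -2.61 after NVP-2 (0.35 centred). It was called lower with THAL-SNS-032 than with NVP-2 (-0.46, SE 0.17, adjusted p = 0.0225, limma). The other 3 of the 4 were called higher there, and after centring 1 was called lower and 2 higher. Of all tested genes, 0.993% were called lower and 70.0% higher in that comparison, or 38% and 29.3% after centring. BID, the most abundant of the list in DMSO, changed by -1.64 after SNS-032 (0.53 centred), -1.59 after THAL-SNS-032 (0.66 centred) and -2.60 after NVP-2 (0.36 centred). Between THAL-SNS-032 and SNS-032, BCL2L11 (-0.86) and PMAIP1 were called lower and 0 of the 4 higher, and after centring 2 were called lower and 1 higher. Of all tested genes, 16.7% were called lower and 13.4% higher in this comparison, or 23.1% and 51.1% after centring. BBC3, which encodes PUMA, had 2.55, 5.13 and 3.78 FPKM after SNS-032, against 0.786, 0.786 and 1.41 in DMSO. It averaged 0.549 ± 0.0341 FPKM after THAL-SNS-032, 0.253 ± 0.0430 after NVP-2 and 0.994 ± 0.360 in DMSO (SD, n = 3 each). BIK averaged 1.30 ± 0.568 FPKM after SNS-032, 0.787 ± 0.171 after THAL-SNS-032, 0.418 ± 0.144 after NVP-2 and 16.1 ± 1.02 in DMSO (SD, n = 3 each).

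Of 6 genes for turnover of the MCL1 protein, USP13, a deubiquitinase gene, reached the filter only through DMSO, where it averaged 12.5 FPKM against 0.858 over the 9 treated libraries, and is left out of the counts. The other 5 were called lower with each compound, again near the background of 94.6% for SNS-032, 94.8% for THAL-SNS-032 and 97.1% for NVP-2. Their median was -1.71 after SNS-032, -1.75 after THAL-SNS-032 and -2.72 after NVP-2. After centring, 0 were called lower and 4 higher with SNS-032, 0 lower and 5 higher with THAL-SNS-032, and 1 lower and 3 higher under NVP-2. The centred shares over all tested genes were 31.1% lower and 52.6% higher with SNS-032, 29.2% lower and 57.2% higher with THAL-SNS-032, and 28.1% lower and 59.7% higher under NVP-2. FBXW7, a ubiquitin ligase subunit that marks MCL1 for degradation, had 13.7, 23.6 and 21.0 FPKM after SNS-032, 7.42, 9.15 and 7.36 after THAL-SNS-032, 3.78, 4.07 and 4.09 after NVP-2, and 27.0, 30.0 and 36.9 in DMSO. It was lower with THAL-SNS-032 than it was with SNS-032 (-1.16, SE 0.19, adjusted p = 4.12e-04, limma), the 1 gene of the 5 called there. Without SNS-032 replicate 1, 2 were called lower in a count of 6 that includes USP13, so it is not set beside the count of 5. The share over all tested genes is not given for that setting. After centring all 5 were called in this comparison, 2 lower and 3 higher. Of all tested genes, 16.7% were called lower and 13.4% higher in it, or 23.1% and 51.1% after centring. HUWE1, the MULE ligase gene, changed by -2.19 after SNS-032 (-0.021 centred), -1.75 after THAL-SNS-032 (0.50 centred) and -2.72 after NVP-2 (0.24 centred). USP9X, which encodes a deubiquitinase of MCL1, changed by -1.71 after SNS-032 (0.46 centred), -1.67 after THAL-SNS-032 (0.58 centred) and -3.17 after NVP-2 (-0.21 centred).

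The 7 genes taken from the caspase cascade were all called lower with each compound. This is near the background of 94.6% for SNS-032, 94.8% for THAL-SNS-032 and 97.1% for NVP-2. Their median was -2.28 after SNS-032, -2.05 after THAL-SNS-032 and -2.35 after NVP-2. After centring, 3 were called lower and 3 higher with SNS-032, 3 lower and 4 higher with THAL-SNS-032, and 2 lower and 5 higher under NVP-2. Over all tested genes the centred shares were 31.1% lower and 52.6% higher with SNS-032. They were 29.2% and 57.2% with THAL-SNS-032, and 28.1% and 59.7% under NVP-2. CYCS, the cytochrome c gene, changed by -1.75 after SNS-032 (0.42 centred), -1.56 after THAL-SNS-032 (0.70 centred) and -2.10 after NVP-2 (0.86 centred). DIABLO, whose protein relieves caspase inhibition, fell to 4.46 ± 1.90 FPKM after SNS-032, 4.17 ± 0.449 after THAL-SNS-032 and 2.24 ± 0.251 after NVP-2, against 62.3 ± 0.798 in DMSO (SD, n = 3 each). Centred changes stayed below 0 for DIABLO, at -1.43 after SNS-032, -1.36 after THAL-SNS-032 and -1.33 after NVP-2. XIAP, which encodes an inhibitor of caspases, changed by -1.41 after SNS-032 (0.76 centred), -1.40 after THAL-SNS-032 (0.86 centred) and -2.35 after NVP-2 (0.61 centred). Without SNS-032 replicate 1, an alternative chosen after seeing the data, the counts against DMSO were the same for these 4, 5 and 7 genes. Between THAL-SNS-032 and SNS-032, 0 of the 7 caspase cascade genes were called lower and 1 higher, beside 16.7% and 13.4% of all tested genes. Without that library 2 were called lower and 1 higher, and the share over all tested genes is not given for that setting.

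**Figure D5:**
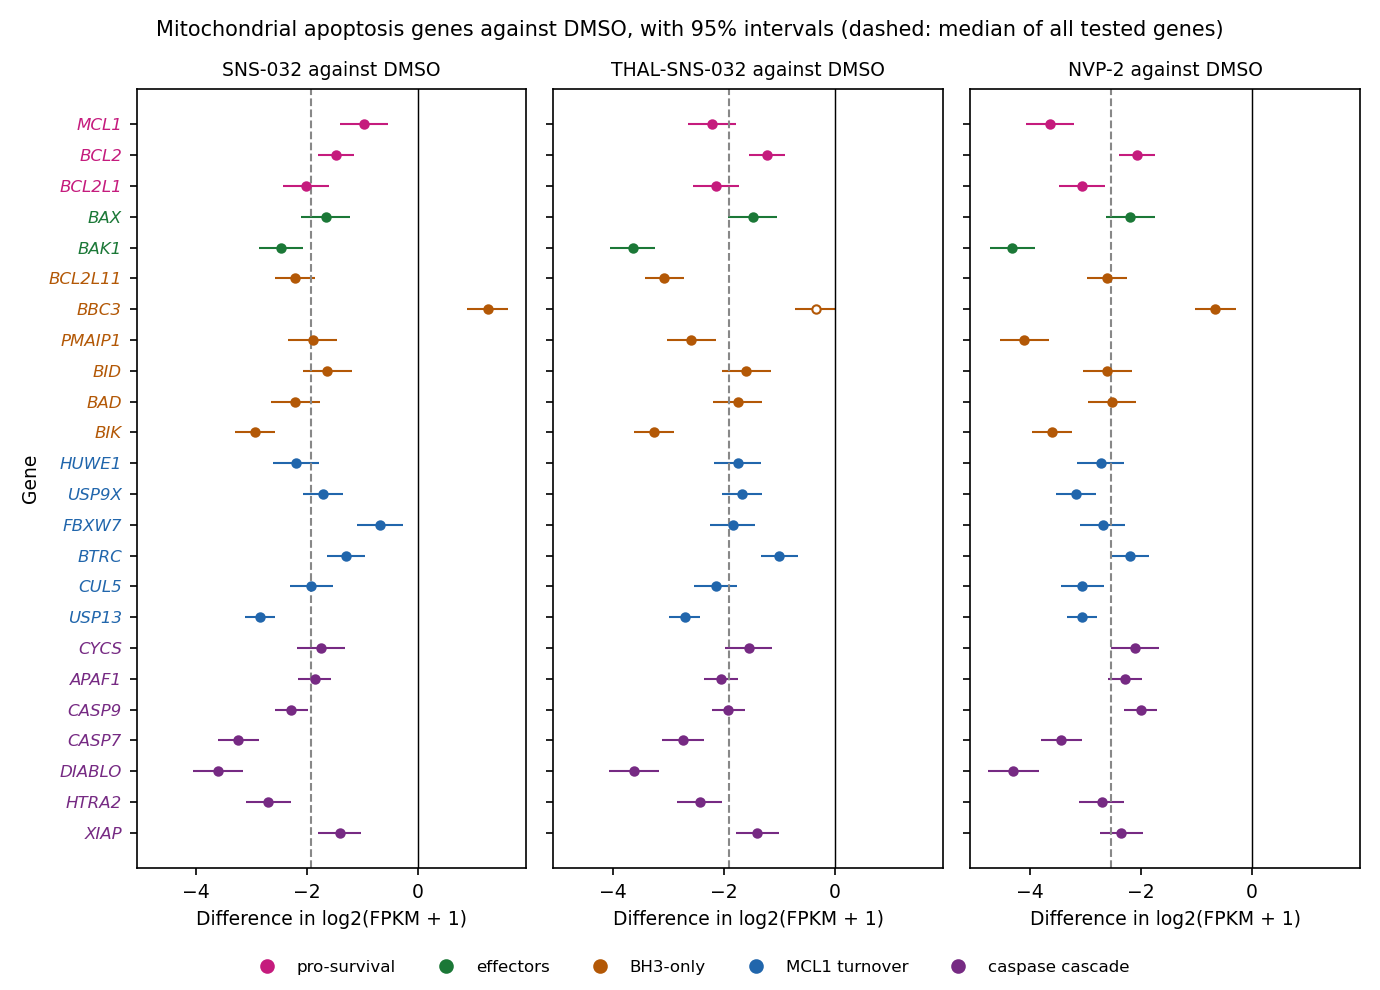
Difference in mean log2(FPKM + 1) from DMSO with 95% intervals for the tested genes of each list, 1 panel per compound, filled points called and open points not called, with a dashed line at the median of all tested genes. BBC3, BIK and USP13 reached the filter only through their highest group, and their intervals and fills are not to be read as tests. MCL1 lies right of the dashed line with SNS-032 and left of it with THAL-SNS-032 and NVP-2.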

How the data were processed

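The deposited values are FPKM per gene in 12 libraries. The submitters' processing notes name HISAT, Cufflinks 2.0.0 and the build hg19. The annotation, and any step by which the authors normalized the deposited FPKM between libraries, are not given in the sources used here. With FPKM alone, neither the depth of a library nor its counting error is known.

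Of 23713 entries, 92 spike-in entries and 4 entries of repeated symbols were left out. Values were used as log2(FPKM + 1). Genes whose mean reached 1 FPKM were fitted with limma 3.58.1 (trend, 4 groups, 8 residual degrees of freedom) in R 4.3.3, over 6 two-sided comparisons with Benjamini-Hochberg adjustment across all genes tested, called under 0.05. Ratios within a library were compared by exact permutation in SciPy 1.17.1. The fit was tested on simulated data. Figures were drawn with matplotlib 3.10.9.

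The members and lists were chosen with earlier results of these data known. Named genes were the members, BCL2L10, from each list the most abundant in DMSO and up to 2 called genes with the largest change per comparison, and the 3 genes most like each tested member. BBC3, BIK and USP13 passed the filter only through their highest group and were left out of list counts, a choice made after seeing the data. 1 gene of the caspase list is not reported here and was left out of its counts. BCL2L2-PABPN1 was named after its values were seen. Alternatives were another pseudocount, filter, scale, variance model or set of libraries, a replicate block, and leaving out each library.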

Additional observations from a re-analysis of the deposited data

How the results depend on the processing

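Of the settings tried, centring libraries on their medians changed most. By construction it sets every library median equal. The median change of all tested genes against DMSO was still 0.25 for SNS-032, 0.36 for THAL-SNS-032 and 0.42 for NVP-2. A sign against 0 is thus not a place among the genes. Centred values of the opposite sign were 1.20 and 0.048 for MCL1 with SNS-032 and THAL-SNS-032 against DMSO, 0.16 and 0.11 for BCL2L1 in the same 2 comparisons, 0.70 after SNS-032, 1.04 after THAL-SNS-032 and 0.90 after NVP-2 for BCL2, and -0.20 for BCL2 with SNS-032 against NVP-2. Without the filter the number of members called became 5 in each comparison with DMSO, through BCL2L2 and BCL2A1, which are not read as tested. It became 2 after centring for THAL-SNS-032 against SNS-032, where 23.1% of all tested genes were called lower and 51.1% higher. Leaving out 1 library, that number was 1 to 2 in the same comparison, with BCL2L1 from -0.38 to 0.027. The shares over all genes are not given without the filter, with a library left out or with a replicate block. Counts of members under those settings are therefore not read as results about the members. MCL1 kept its direction and call in every left-out library, from -1.15 to -0.70 with SNS-032 and -1.51 to -1.06 for THAL-SNS-032 against SNS-032. The log2 ratio of MCL1 to BCL2L2 with SNS-032 against DMSO was 0.61, and -0.31 with a pseudocount of 1. Same-numbered libraries did not deviate together (r over 0.1 in 1 of 18 pairs, from -0.15 to 0.17), and with a replicate block the number of members called stayed at 3, or 1 for THAL-SNS-032 against SNS-032. Equal spike-in medians are no separate check, since the deposited ones were already level. Unknown depth limits BCL2L2 and BCL2A1 most.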
